A study of Mus musculus with 3 samples.

Results

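The Fam19a genes, also named TAFA, are a family of 5 genes, Fam19a1 to Fam19a5, and all 5 were found by symbol among the 31055 genes of the count tables from mouse olfactory bulb nuclei. The family was selected on its levels across the clusters and subclusters of these same nuclei, as seen in earlier results, so the levels are described here without tests. The data are single-nucleus RNA counts of 3 adult male C57Bl/6 mice, 1 library per mouse, which form 1 group. All carried retroAAV-CAG-H2B-GFP, a virus taken up at axon ends and injected here in the piriform cortex and the anterior olfactory nucleus, so that bulb neurons whose axons reach these areas gain nuclear GFP. GFP-positive nuclei were sorted, and no untreated or unsorted sample was compared. The CAG promoter is active in most cell types, and the sorted nuclei held many interneurons and glia beside projection neurons.

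The authors' annotation retained 31703 nuclei (5845, 21105 and 4753 from mice 1, 2 and 3) in 22 clusters, and split 7504 of them further into 10 subclusters. The libraries held 58526996, 213891496 and 62929479 UMIs (unique molecular identifiers, each standing for 1 captured RNA molecule), with a median of 7940, 8420 and 10568 per nucleus. Cluster names were rebuilt here from marker genes and may differ from those of the study. By markers, 5 clusters were projection-neuron-like, 10 were inhibitory-neuron-like, 6 were glial, vascular or microglial, and 1 stayed unnamed. Of the subclusters, 7 carried the markers of a mitral type (M1, M2 or M3) or a tufted type (T1, ET1, ET2 or ET4, ET being external tufted), 1 was periglomerular-like, and 2 stayed unnamed. Between 8 and 39 barcode sequences recurred between any pair of libraries, and no doublet caller was run.

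Fam19a proteins are small secreted, cysteine-rich proteins that resemble chemokines and are made mainly in the nervous system. Several of them bind neurexins, presynaptic adhesion proteins, and others have been tied to receptors such as Gpr1, Fpr1, Fpr2, S1pr2, Lrp1 and Lrrc4b. Mitral and tufted cells are the glutamatergic output neurons of the olfactory bulb, and granule and periglomerular cells are its inhibitory interneurons.

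The 5 genes lie apart in the genome except for Fam19a1 and Fam19a4 (GENCODE M21, GRCm38). Fam19a1 spans chr6:96113154-96657198 on the plus strand, and Fam19a4 spans chr6:96831203-97060413 on the minus strand, with 174004 bases and 0 annotated genes between them. Fam19a2 spans chr10:123263996-123741204 and Fam19a5 spans chr15:87544299-87759364, both on the plus strand. Fam19a3, the shortest, spans chr3:104767406-104781840 on the minus strand, over 14.4 kb against 215 to 544 kb for the other members. Its 3′ part overlaps Gm43584, a transcript on the same strand that was not a row of the count table and that holds 5.59% of the 31-base words of Fam19a3 transcripts. Its 5′ end overlaps Ppm1j on the other strand. No 31-base word was shared between any pair of members, and the other members shared at most 0.431% of their words with any other gene. The coding sequences were 396 to 405 bases long, and identity between members ran from 59.0% for Fam19a2 with Fam19a5 to 74.6% for Fam19a3 with Fam19a4.

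The regions just upstream of the RefSeq starts are shown because the members differed in the density of CG dinucleotides there. The sequences below are RefSeq windows of GRCm38.p6, read 5′ to 3′ on the strand of the gene, with every CG in capitals. All 5 members had an entry. Bases that fall in an annotated exon of the member were left off, so Fam19a2 is shown over 170, Fam19a3 over 143 and Fam19a4 over 248 bases, while Fam19a1 and Fam19a5 are shown over 250 bases. The stretches are chr6:96112904-96113153 for Fam19a1, chr10:123263826-123263995 for Fam19a2, chr3:104777655-104777797 for Fam19a3, chr6:97060414-97060661 for Fam19a4 and chr15:87544049-87544298 for the first of 2 Fam19a5 starts. The RefSeq start of Fam19a3 lies within the GENCODE span given above, downstream of its annotated 5′ end, so the Fam19a3 stretch is not the region upstream of that end.
Fam19a1: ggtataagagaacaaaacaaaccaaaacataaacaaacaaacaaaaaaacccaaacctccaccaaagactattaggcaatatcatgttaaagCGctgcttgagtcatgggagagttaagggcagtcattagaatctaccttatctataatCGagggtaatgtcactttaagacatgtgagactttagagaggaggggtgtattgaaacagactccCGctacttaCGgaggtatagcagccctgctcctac
Fam19a2: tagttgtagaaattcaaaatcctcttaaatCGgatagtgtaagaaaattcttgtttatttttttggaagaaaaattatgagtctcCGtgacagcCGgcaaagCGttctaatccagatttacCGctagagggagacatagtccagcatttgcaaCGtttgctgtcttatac
Fam19a3: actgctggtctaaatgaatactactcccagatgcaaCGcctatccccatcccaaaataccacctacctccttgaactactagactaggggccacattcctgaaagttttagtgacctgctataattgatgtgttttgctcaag
Fam19a4: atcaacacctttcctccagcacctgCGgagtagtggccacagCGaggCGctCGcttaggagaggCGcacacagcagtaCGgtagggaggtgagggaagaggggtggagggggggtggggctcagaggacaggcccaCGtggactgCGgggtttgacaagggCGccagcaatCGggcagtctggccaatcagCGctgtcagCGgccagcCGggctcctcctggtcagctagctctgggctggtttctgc
Fam19a5: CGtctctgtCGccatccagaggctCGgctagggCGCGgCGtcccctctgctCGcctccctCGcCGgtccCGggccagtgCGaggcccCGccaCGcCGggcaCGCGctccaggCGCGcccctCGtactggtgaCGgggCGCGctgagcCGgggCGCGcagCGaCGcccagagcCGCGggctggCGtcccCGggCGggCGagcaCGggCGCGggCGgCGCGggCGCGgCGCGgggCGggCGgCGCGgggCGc

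Over the full 250-base windows, Fam19a1 held 4 CG, Fam19a2 and Fam19a3 held 6 each, and Fam19a4 held 13. The windows of Fam19a5 held 48 and 38. This order was not that of detection, since Fam19a5 was found in the most nuclei (37.1%) but Fam19a4 in the fewest (1.61%). The median over 32851 RefSeq windows was 6 CG, and 0.186% of them held as many as the first Fam19a5 window. Searched on both strands, none of the members' windows held TAATTA, a core of many homeodomain sites, which 4.84% of all windows held, nor GGTGTGA, a T-box motif, which 3.33% held. These matches of letters describe the windows only.

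Summed over all nuclei, Fam19a2 was counted most often, with 74244 UMIs, followed by Fam19a5 with 26246, Fam19a1 with 15900, Fam19a3 with 1934 and Fam19a4 with 575. The order of these sums turned in mouse 3, which held 9477 UMIs of Fam19a1 and 3996 of Fam19a5, while mouse 2 gave 40671 of the Fam19a2 and 18293 of the Fam19a5 UMIs. Per kilobase of gene span, the level order was Fam19a2 (156 UMIs per kb), Fam19a3 (134), Fam19a5 (122), Fam19a1 (29.2) and Fam19a4 (2.51). Whether intronic reads were counted is not given in the sources used here, and that choice bears on any such order. Fam19a5 was detected in 11758 nuclei, more than the 9627 with Fam19a2, although its UMI total was lower. A single nucleus held at most 33 Fam19a5 UMIs, but up to 194 of Fam19a2 and 411 of Fam19a1. The family members therefore differed both in level and in how their RNA was spread over nuclei. Levels below are UMIs per 1000000 UMIs of the cluster (CPM), summed per mouse, and each mean is over the 3 mice with its SD. Where a single type or cluster is said to lie above or below others, the share of all genes that do so was not counted.

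**Figure D1:**
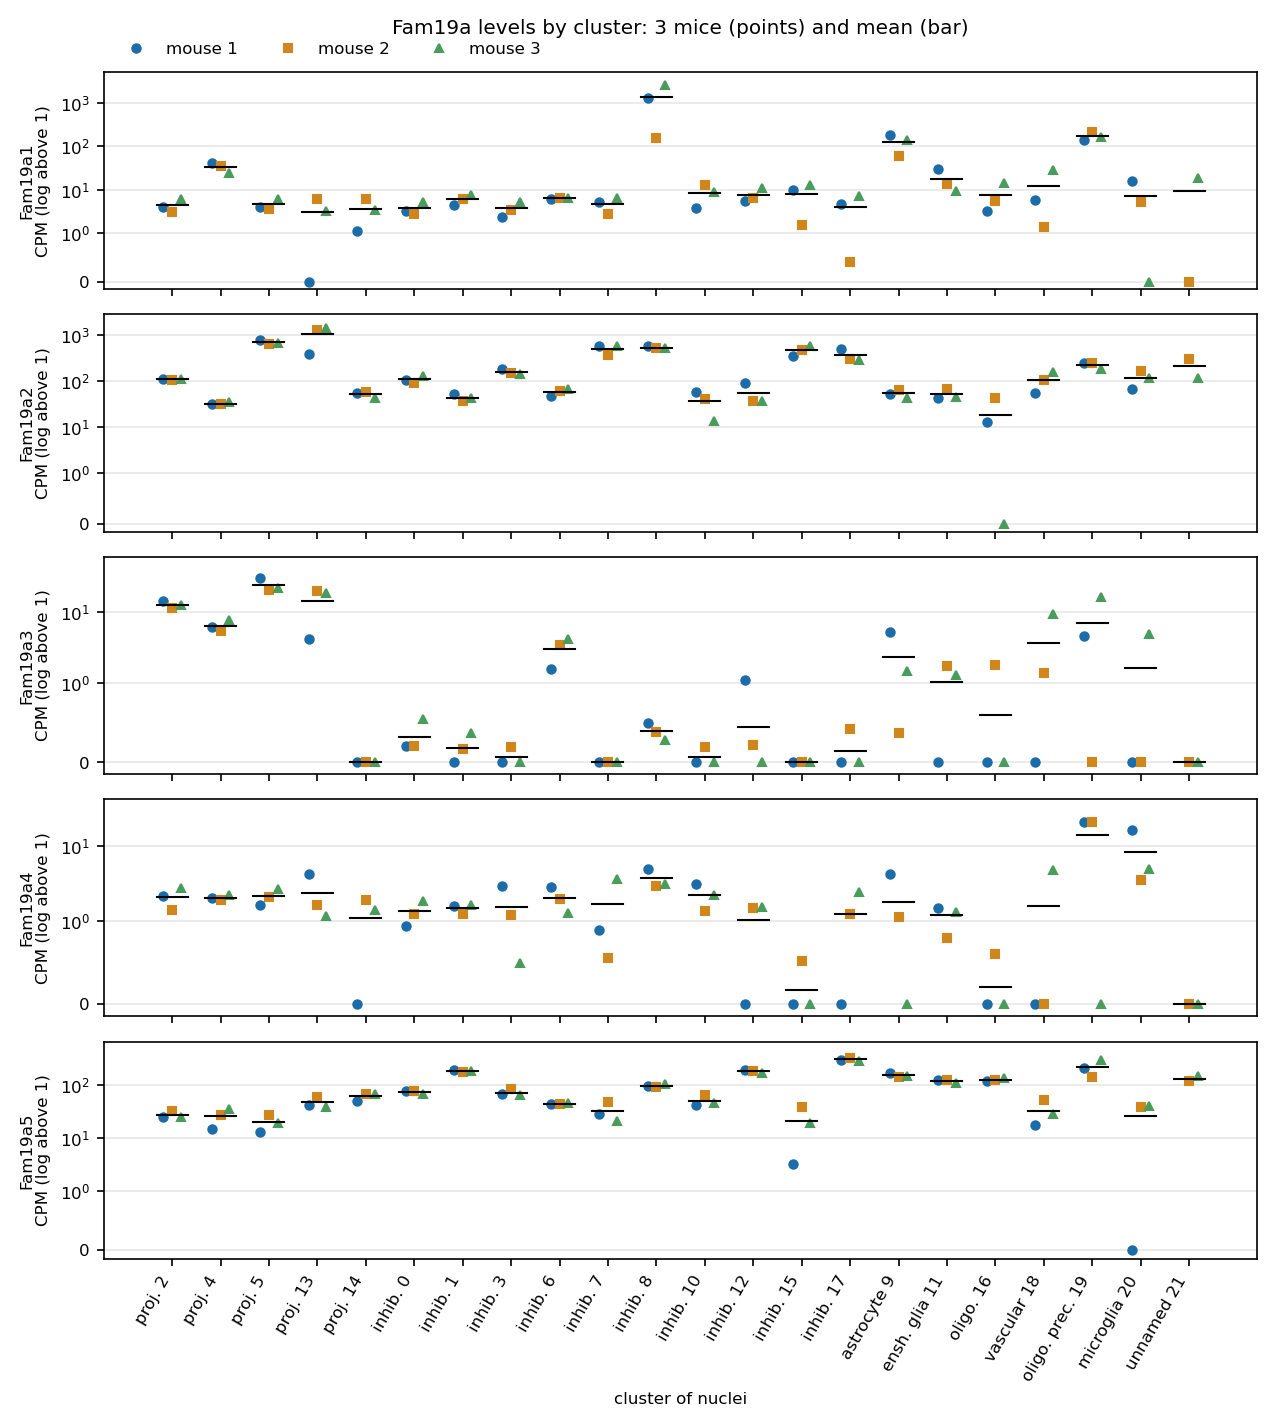
CPM of each member (rows, axis logarithmic above 1 CPM) in the 22 clusters, with 1 point per mouse with at least 10 nuclei and a bar at the mean. Fam19a1 peaks in cluster 8 with mice far apart, Fam19a2 in projection-like clusters 13 and 5, Fam19a3 is close to 0 in nearly all inhibitory-like clusters, and Fam19a5 is highest in inhibitory-like cluster 17.

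Fam19a2 was higher in every mitral-like than in every tufted-like library. In M1-like nuclei it was at 501, 1293 and 1376 CPM in mice 1, 2 and 3, where the value of mouse 1 rests on 14 nuclei. M2-like nuclei held 819, 716 and 713 CPM. In M3-like nuclei the values were lower, at 156, 131 and 263 CPM. M1 and M2 overlapped between mice, and every M2 library lay above every M3 library.

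Among the tufted types, T1-like nuclei held 112, 99.6 and 99.96 CPM of Fam19a2. ET2-like nuclei had 50.4 ± 7.13 CPM (SD, n = 3), and ET1-like nuclei had 36.2 ± 9.98 CPM. ET4-like nuclei were lowest, at 17.5, 19.3 and 18.9 CPM. The libraries of ET2 and ET1 overlapped, while T1 stood above both and ET4 below both in every mouse.

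The 9 mitral-like libraries (3 types in 3 mice) ran from 131 to 1376 CPM of Fam19a2, and the 12 tufted-like libraries from 17.5 to 112 CPM. The groups did not overlap, as was the case, in the direction of higher mitral levels, for 0.490% of the 14696 genes tested (0.211% in the other direction). The log2 ratio of the mean levels was 3.67, with an SD of 0.38 over mice. Because Fam19a2 was seen to differ in this way before it was chosen, this is a description and not a test.

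Fam19a2 was found in 95.9% of M1-like nuclei (exact Clopper-Pearson 95% interval 94.2% to 97.3%), 93.5% of M2, 29.8% of M3, 50.9% of T1 and 10.6% of ET4 nuclei. M3 thus lay below T1 in detection although its mean level was above that of T1 (183 against 104 CPM). Depth differed between these types, with a median of 18005 UMIs in M1 and 5915 in M3. After thinning to 2000 UMIs per nucleus, the shares were 81.2%, 65.1%, 17.01%, 15.7% and 2.86%, and M3 no longer lay below T1. Nuclei with fewer UMIs were left out, which kept 319 of 326 M3 nuclei and 139 of 146 microglia-like nuclei. All intervals cover counting error only. Microglia-like nuclei, which are not known for this gene, had a UMI in 14.4% of 146 nuclei with a median of 3405 UMIs, and 9.93% after thinning. Thinned shares of 10 of the other 21 clusters were at or below that, among them projection-like clusters 4 and 14. The level in microglia-like nuclei was 113 ± 47.5 CPM, above the means of all 4 tufted types, although that of T1 (104 CPM) lay within 1 SD of it, so the microglia values are not a floor common to all types. What part free RNA has in the low values of these types was not tested.

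High Fam19a2 was not limited to projection neurons. Among inhibitory-like clusters, cluster 8 held 560, 500.1 and 510.1 CPM, cluster 7 held 568, 365 and 559 CPM, cluster 15 held 335, 464 and 557 CPM and cluster 17 held 485, 298 and 284 CPM. These 4 overlapped one another from each to the next in order of level, and all lay below projection-like cluster 5 (770, 616 and 671 CPM), which shares the leading genes Ros1, Far2 and Samsn1 with M2. The other 6 inhibitory-like clusters lay between 36.3 CPM in cluster 10 and 157 CPM in cluster 3 on average. Oligodendrocyte-precursor-like cluster 19 held 220 ± 35.2 CPM. Averaged over classes, the 7 named projection types held 405 ± 66.5 CPM and the inhibitory-like clusters 152 ± 27.1 CPM.

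**Figure D2:**
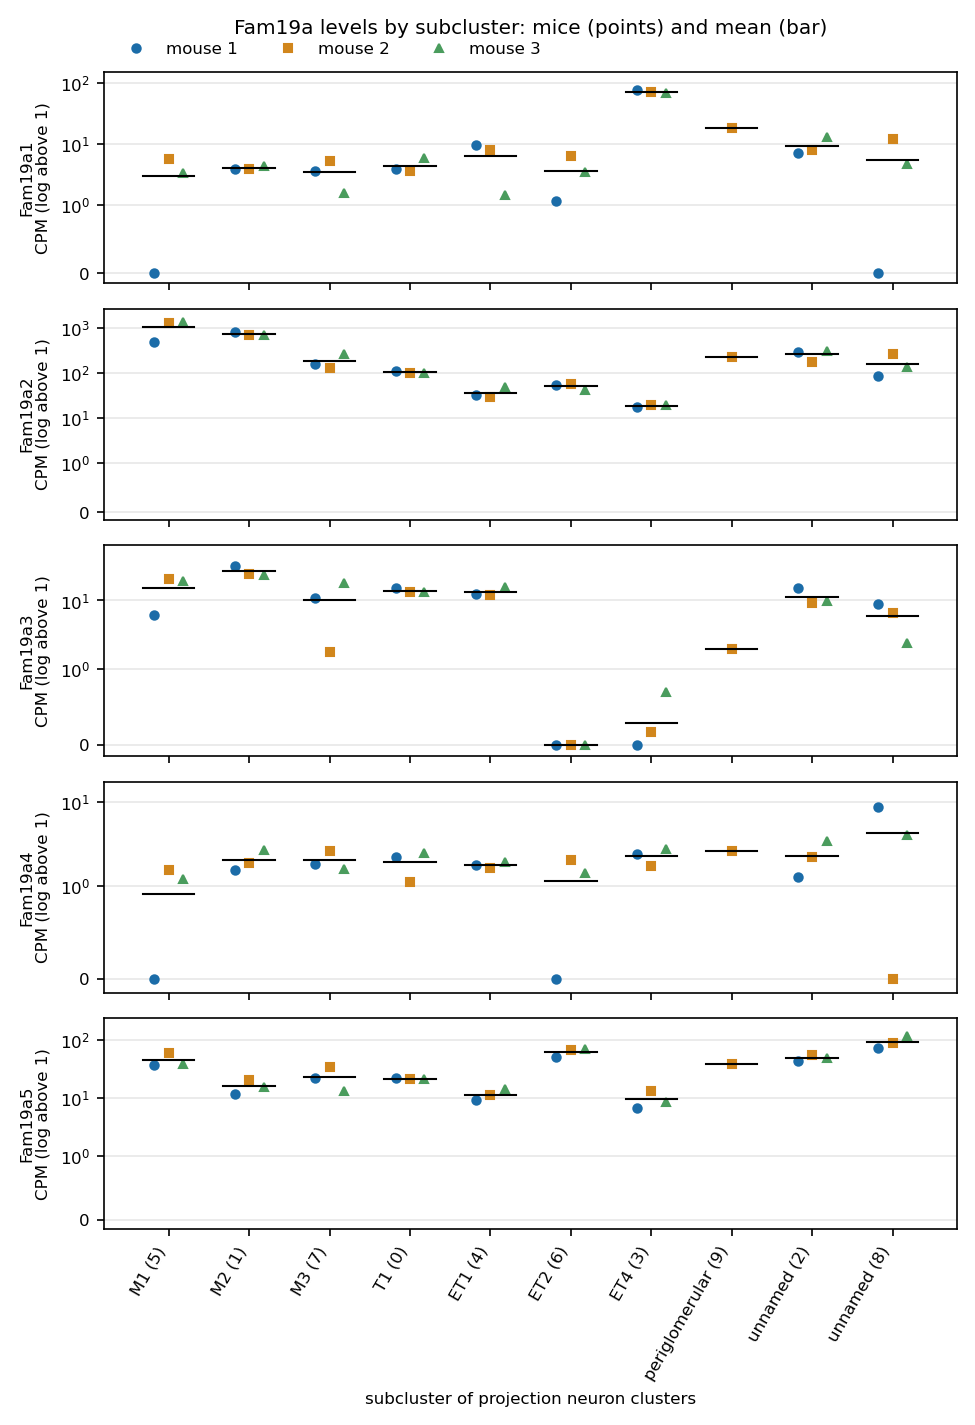
CPM of each member in the 10 subclusters of projection neuron clusters, with 1 point per mouse with at least 10 nuclei and a bar at the mean, on an axis that is logarithmic above 1 CPM. Fam19a2 falls from M1 and M2 to ET4, Fam19a1 is highest in ET4, and Fam19a3 is at or near 0 in ET2 and ET4.

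Fam19a3 had the largest ratio of projection-like to inhibitory-like level among the members. Its level was 13.6 to 18.8 CPM in the projection-like libraries and 0.303 to 0.639 CPM in the inhibitory-like libraries, a log2 ratio of 5.12 with an SD of 0.69 over mice. Libraries of these classes did not overlap, as was the case, in the direction of higher projection-like levels, for 29.2% of 18088 genes. It was highest in M2-like nuclei, at 32.3, 24.3 and 23.4 CPM, which lay above all other subclusters in every mouse. M1-like nuclei held 6.19, 20.5 and 19.1 CPM, T1-like 15.3, 13.3 and 13.4 CPM, ET1-like 12.6, 12.01 and 15.5 CPM and M3-like 10.9, 1.77 and 17.7 CPM. Each of these 4 types overlapped with the next in order of level. The M3 values rest on 19 UMIs in all.

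Fam19a3 was all but missing from the other external tufted types. ET4-like nuclei held 2 UMIs in 883 nuclei, and none was counted in 471 ET2-like nuclei, which allows a level of up to 0.487 CPM and a share of nuclei with a UMI of up to 0.637%. External tufted types thus fell into ET1, at the level of T1, and ET2 and ET4, at or near 0. Among inhibitory-like clusters, cluster 6 stood out with 1.57, 3.47 and 4.25 CPM. The other 9 averaged 0 to 0.444 CPM, with no UMI in clusters 7 and 15, whose floors of 3 counts correspond to 0.378 and 1.05 CPM.

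Fam19a1 was the member with the most uneven spread. Of all its UMIs, 79.5% came from cluster 8, which was inhibitory-neuron-like and held 1277, 157 and 2529 CPM in mice 1, 2 and 3. The mean was 1321 ± 1187 CPM, so the SD was close to the mean, and it was 598 CPM when each nucleus counted equally. Outside this cluster, levels were above 100 CPM only in oligodendrocyte-precursor-like nuclei (138, 209 and 163 CPM) and, in mice 1 and 3, in astrocyte-like nuclei (181, 61.0 and 137 CPM). The libraries of these cell types overlapped, and the astrocyte-like ones lay above those of every cluster further down the order.

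Within cluster 8, Fam19a1 came from few nuclei. Of 1356 nuclei, 1239 held none, 31 held 1, 10 held 2 to 8 and 76 held at least 10, a cut set after the values were seen. The 76 nuclei held a median of 164 and up to 411 Fam19a1 UMIs, and together 99.4% of the cluster's and 79.0% of all Fam19a1 UMIs. They numbered 13, 12 and 51 in mice 1, 2 and 3, or 5.83%, 1.38% and 19.5% of the cluster's nuclei in each mouse. In them Fam19a1 reached 8212, 4537 and 6072 CPM. The rest of the cluster held 9.40, 2.79 and 16.1 CPM.

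**Figure D3:**
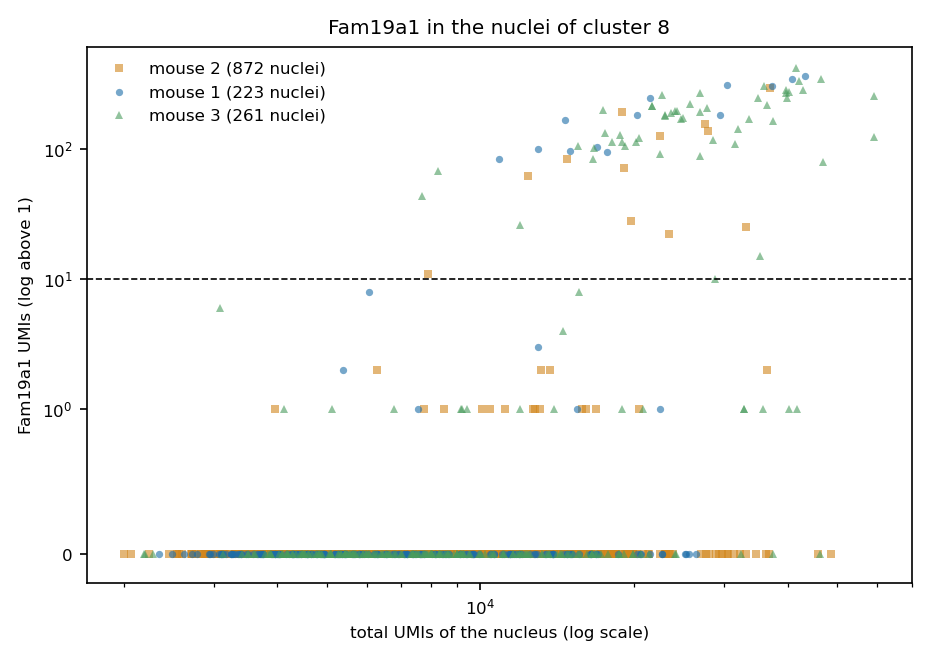
Fam19a1 UMIs (axis logarithmic above 1) against total UMIs (logarithmic axis) for each of the 1356 nuclei of cluster 8, coloured by mouse, with a dashed line at 10 UMIs. The 76 nuclei above the line hold up to 411 UMIs and lie toward high totals, while 1239 nuclei lie at 0.

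These 76 nuclei went against the inhibitory name of their cluster. Gad1, which makes the transmitter GABA, was at 62.7 CPM in them and 694 CPM in the rest of cluster 8. Slc32a1, the vesicular GABA transporter, was at 13.8 against 207 CPM. Of the 6 projection neuron markers, 3 were higher in the 76 in each mouse. These were the vesicular glutamate transporters Slc17a7, at 169 against 29.1 CPM, and Slc17a6, at 42.4 against 6.66 CPM, and the transcription factor Tbr1, at 21.2 against 2.31 CPM. The other markers of mitral and tufted cells were Tbx21, at 3.95 against 2.13 CPM, Cdhr1, at 18.8 against 23.7 CPM, and Eomes, at 8.88 against 10.5 CPM, and none of these went the same way in all mice. Cluster 8 carries its name through its other nuclei, and the leading genes of the cluster included Fam19a1, Gm28928, Fam135b and Htr2c, which are also leading genes of the 76 against all other nuclei. No cell type name is given to the 76.

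Their depth differed too, with a median of 24163 UMIs against 7052, although a cut on UMI counts is passed more readily by deep nuclei. Whether some of them are doublets was not tested. Genes were ordered against the rest of the cluster by the ratio of CPM with 5 CPM added. Fam19a1 came first, which the cut had fixed in advance. After it came Nfia, E130114P18Rik, Abi3bp, Gm28928, C1ql3, Slit2, Bmpr1b, Ndst3 and Sv2b. Nfia, a nuclear factor I transcription factor, was at 1523 against 16.0 CPM. C1ql3, a secreted synaptic protein of the C1q family, was at 260 against 1.07 CPM, and Slit2, an axon guidance ligand, at 495 against 8.43 CPM. Foremost among those lower were Zfp804b, at 47.9 against 2753 CPM, and Dock10, at 12.3 against 775 CPM. The RNA of the viral construct, eGFP, was at 12.9, 71.9 and 15.9 CPM in those of the 76 nuclei from mice 1, 2 and 3, and at 62.0 CPM in the rest, which came mostly from mouse 2 (860 of 1280 nuclei). The value of the rest is pooled over mice, so no direction within a mouse is given. Fam19a2 was at 308 CPM in the 76 and 549 CPM in the rest, but in mouse 1 at 553 against 562 CPM. These nuclei held 624 of the 6803 Fam19a2 UMIs of cluster 8, against 12563 of its 12633 Fam19a1 UMIs.

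Among projection types, Fam19a1 was highest in ET4. ET4-like nuclei held 76.6, 72.9 and 70.6 CPM, and the other 6 named types averaged 3.05 CPM in M1 to 6.46 CPM in ET1. The highest single library among those 6 was at 9.87 CPM, below every ET4 library. The share of all genes that separate ET4 in this way was not counted. A UMI was found in 23.1% of ET4 nuclei (20.4% to 26.0%) and in 10.4% after thinning, against 1.36% in thinned microglia-like nuclei. The microglia-like share rests on 4 UMIs in 2 nuclei. ET4 was also the type with the lowest Fam19a2. In the same 883 nuclei, Fam19a2 was found in 9.80% of those with a Fam19a1 UMI and 10.9% of those without one, at a median depth of 10273 and 10430 UMIs.

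The class averages of Fam19a1 depended on the 76 nuclei. With them, inhibitory-like libraries held 90.3, 13.8 and 319 CPM and projection-like libraries 12.2, 12.6 and 7.78 CPM, a log2 ratio of -3.70 with an SD of 2.62 over mice. Without them, an alternative chosen after seeing the data, the log2 ratio was 1.02, so the direction turned. The 76 were picked on Fam19a1 itself, so a fall of the inhibitory-like level was fixed in advance. No nuclei were taken out of the projection-like libraries, although projection-like cluster 4 had 14 over the same cut, with 220 of its 944 UMIs. Without mouse 3 but with the 76 nuclei, the log2 ratio was -2.07. No direction is therefore drawn for Fam19a1 between these classes.

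Fam19a5 had the broadest distribution. It was found in 37.1% of all nuclei, and after thinning to equal depth the share was above that of microglia-like nuclei (3.99%) in 19 of the other 21 clusters. It was highest in inhibitory-like cluster 17, at 307, 334 and 284 CPM, where 93.7% of 190 nuclei held a UMI (44.4% after thinning). Oligodendrocyte-precursor-like nuclei held 211, 142 and 302 CPM and overlapped with cluster 17. Inhibitory-like clusters 1 (195, 183 and 188 CPM) and 12 (195, 186 and 171 CPM) came next, followed by astrocyte-like nuclei with 154 ± 14.9 CPM. Oligodendrocyte-like nuclei held 127 ± 7.73 CPM and ensheathing-glia-like nuclei 121 ± 10.3 CPM.

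Projection neurons were low in Fam19a5. The projection-like libraries held 16.5, 28.9 and 23.9 CPM and the inhibitory-like ones 103, 108 and 95.8 CPM, a log2 ratio of -2.15 with an SD of 0.40 over mice. Libraries did not overlap, as for 36.8% of all genes in this direction. This was the opposite direction to Fam19a2 and Fam19a3. Not all inhibitory-like clusters were high, since cluster 15, whose leading genes were Vip, Pnoc and Sst, held 20.9 ± 18.3 CPM. Clusters 7, 6 and 10 held 33.1 ± 14.8, 44.3 ± 1.02 and 51.4 ± 11.9 CPM, below the mean of ET2 (62.3 CPM). The remaining inhibitory-like clusters averaged 73.1 CPM (cluster 3) or more. Among projection types, ET2 held 50.9, 66.1 and 69.8 CPM and M1 37.1, 60.4 and 38.8 CPM, and these overlapped. M3 held 23.0 ± 10.8 CPM from 59 UMIs, T1 21.5 ± 0.335 CPM, M2 15.7 ± 4.37 CPM, ET1 11.4 ± 2.58 CPM and ET4 9.39 ± 3.23 CPM. Mitral-like and tufted-like types interleaved in this order, and the log2 ratio of their means was 0.10 with an SD of 0.40 over mice. Unnamed subcluster 8, of 126 nuclei, held more than any named type, at 73.5, 88.4 and 119 CPM.

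Counts of Fam19a4 were close to the limit of detection. Its level was 1.88 ± 0.327 CPM in projection-like and 1.68 ± 0.268 CPM in inhibitory-like libraries, a log2 ratio of 0.16 with an SD of 0.15 over mice. Thinned shares of 19 of the other 21 clusters were at or below the 0.554% of microglia-like nuclei. The highest mean was in oligodendrocyte-precursor-like nuclei, at 21.1, 20.8 and 0 CPM from 26 UMIs in 151 nuclei, where mouse 3 gave 10 nuclei. In the 7 named projection types the means ran from 0.918 to 2.30 CPM, and each type overlapped with the next in order. Differences between these 7 types were not tested, and no order of them is drawn at this depth.

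Read by type, the members formed different combinations. M1-like nuclei had high Fam19a2 with Fam19a3 and Fam19a5, M2-like nuclei had high Fam19a2 with the highest Fam19a3 and little Fam19a5, ET2-like nuclei had Fam19a5 without Fam19a3, and ET4-like nuclei had Fam19a1 with little of Fam19a2, Fam19a3 or Fam19a5. Across the 22 clusters, the largest correlation between any pair of members in log2(CPM + 1) was 0.43, between Fam19a3 and Fam19a4, where most values lie near 0, and the lowest was -0.39, between Fam19a3 and Fam19a5. These describe 22 groups that share libraries and are not tests.

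The genes whose levels ran most nearly with each member across the 22 clusters, among 14694 genes with at least 10 CPM in a cluster, were Rab27b, Ext1 and Tenm1 for Fam19a2, at r = 0.69, 0.69 and 0.67. Raver2 (r = 0.88), C230034O21Rik and Gm27243 were nearest to Fam19a3. For Fam19a1 they were Abcc12 (r = 0.81), Gm45025 and Slitrk6, for Fam19a4 Uvrag (r = 0.87), Dtl and Galnt3, and for Fam19a5 Npas3 (r = 0.77), Pcyt1b and Ncam2. Across the 10 subclusters, where few points give high values readily, they were Gm42953, Gm40331 and Mrps35 for Fam19a1 and Cntn1 and Gm35501 for Fam19a2. They were Lingo1, Camta1 and Slc35f4 for Fam19a3 and Brinp2, Cadm2 and Carmil3 for Fam19a5. Fam19a4 did not reach 10 CPM in any subcluster and was not compared.

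Receptors and other proteins named as partners of the family were then compared between classes with a quasi-likelihood test in edgeR, adjusted over all genes by the Benjamini-Hochberg method. A gene was called at an adjusted p under 0.05 and a log2 fold change beyond 1. Clusters were formed on these same counts, so the p-values measure how firmly the clusters differ between mice and not whether the types exist. In the mitral and tufted fit each type was a term of its own, so the p-values rest on the spread of mice within types, and a call compares the averages of 3 and 4 types without saying that each type of a class differed. Between projection-like and inhibitory-like nuclei, 15.4% of 18088 genes were called higher in projection-like and 13.9% higher in inhibitory-like nuclei (29.3% in either direction). In the comparison of mitral-like with tufted-like nuclei, 5.53% of 14696 genes were called higher in the mitral-like and 3.81% higher in the tufted-like types (9.34% in either direction).

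Of 9 listed binding partners, 7 could be tested between projection-like and inhibitory-like nuclei, of which 1 was called higher in projection-like and 2 in inhibitory-like nuclei. The median log2 fold change of the 7 was 0.20, against 0.01 over all genes. Nrxn3 was at 2500 to 2624 CPM in projection-like and 11120 to 14126 CPM in inhibitory-like libraries (log2 fold change -2.23, SE 0.13, edgeR adjusted p = 5.6e-06). Nrxn2 was at 175 ± 5.55 against 303 ± 22.8 CPM (-0.72, SE 0.08), short of the fold threshold. The other calls were of rare transcripts. Gpr1, a receptor tied to Fam19a1, was at 1.49 ± 0.348 against 0.311 ± 0.140 CPM, and S1pr2, tied to Fam19a5, at 0.278 ± 0.025 against 1.00 ± 0.181 CPM. Lrp1 (49.4 against 40.7 CPM) and Lrrc4b (71.4 against 65.7 CPM) were not called. Fpr2 had no UMI in these libraries, and Fpr1 was too low to test.

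Between mitral-like and tufted-like nuclei, 6 of the 9 partners were tested, and 2 were called, both higher in mitral-like nuclei. Nrxn3 had a log2 fold change of 1.94 (SE 0.18, edgeR adjusted p = 3.6e-09). By type it was at 3445 ± 886 CPM in M1, 4090 ± 159 CPM in M2 and 4008 ± 197 CPM in M3, against 2258 ± 67.9 CPM in T1, 1201 ± 59.4 CPM in ET1, 1163 ± 1006 CPM in ET2 and 275 ± 98.96 CPM in ET4. ET4, the type highest in Fam19a1 and lowest in Fam19a2, was thus lowest in Nrxn3. Over the contrast Nrxn2 had a log2 fold change of -0.16 (SE 0.07) and was not called. The call of Gpr1 (1.64, SE 0.37) did not hold without mouse 1 (edgeR adjusted p = 0.074), and the gene fell below the filter without mouse 2.

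**Figure D4:**
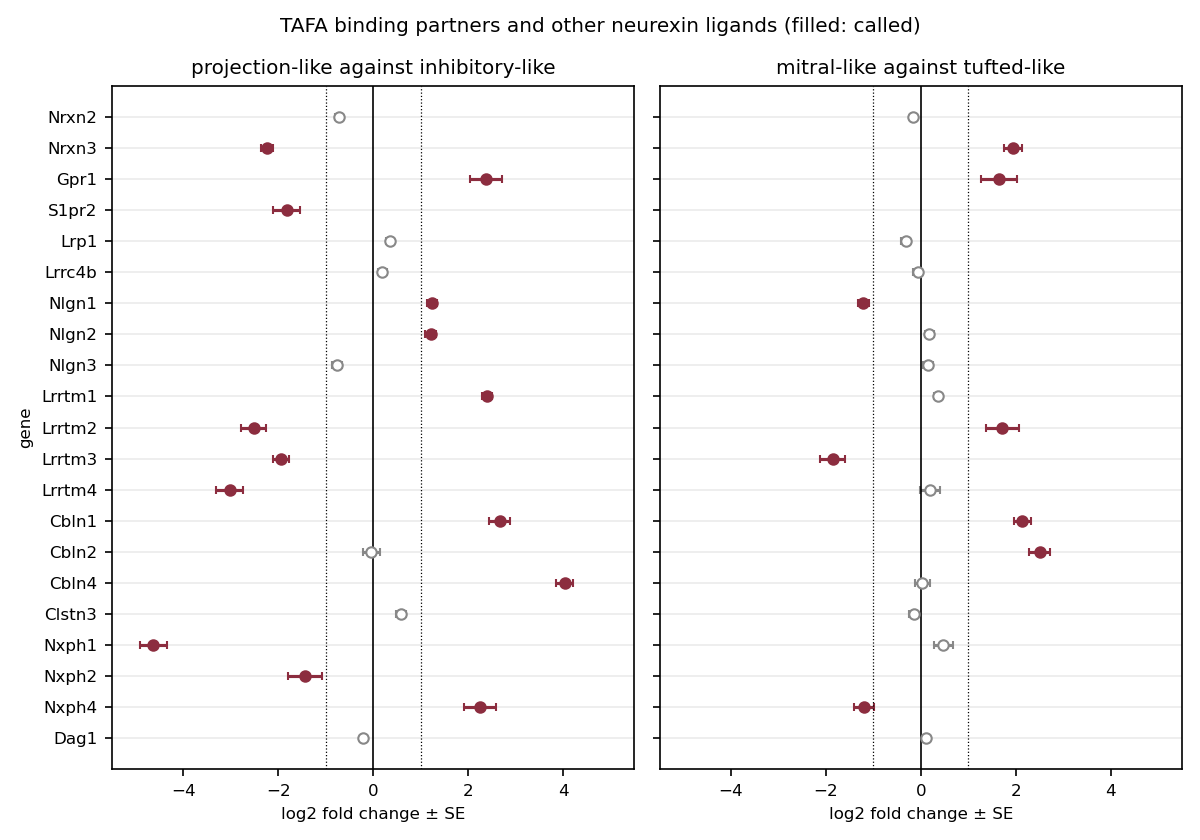
Log2 fold change with its SE from edgeR for listed binding partners and other neurexin ligands, between projection-like and inhibitory-like nuclei (left) and between mitral-like and tufted-like nuclei (right), with dotted lines at a log2 fold change of 1 in either direction. Filled points were called, such as Nrxn3, at -2.23 on the left and 1.94 on the right.

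The neurexins also bind other ligands, among them neuroligins, Lrrtm proteins, cerebellins and neurexophilins. Of 16 such genes, 15 were tested between projection-like and inhibitory-like nuclei, with 6 called higher in projection-like and 5 in inhibitory-like nuclei, and a median log2 fold change of -0.04 against 0.01 over all genes. Among those higher in projection-like nuclei, the cerebellin Cbln4 was at 46.4 to 56.1 against 2.66 to 4.01 CPM (log2 fold change 4.03, SE 0.18), Cbln1 at 25.5 against 4.17 CPM (2.67, SE 0.22) and Lrrtm1 at 74.0 against 14.9 CPM (2.39, SE 0.11). Among those lower, the neurexophilin Nxph1 was at 25.3 to 51.9 against 795 to 1147 CPM (-4.63, SE 0.29), Lrrtm4 at 307 ± 115 against 2632 ± 144 CPM (-3.02, SE 0.29) and Lrrtm2 at 2.55 against 15.9 CPM (-2.52, SE 0.26). The edgeR adjusted p of these 6 ran from 2.2e-06 to 1.1e-04. The call of Nxph2, a rare transcript (log2 fold change -1.43), did not hold without mouse 1 (-1.17, edgeR adjusted p = 0.064) or without mouse 2 (-1.43, edgeR adjusted p = 0.055), where the direction was the same and each class had 2 libraries.

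Between mitral-like and tufted-like nuclei, 14 of the 16 were tested, and 3 were called in each direction, with a median log2 fold change of 0.17 against -0.03 over all genes. Cbln2 (2.50, SE 0.22), Cbln1 (2.13, SE 0.18) and Lrrtm2 (1.72, SE 0.34) were called higher in mitral-like nuclei. M3-like nuclei held the most of both cerebellins, with 147 ± 77.1 CPM of Cbln1 and 116 ± 59.1 CPM of Cbln2. M1-like nuclei did not stand above all tufted types, since their mean of 14.4 CPM of Cbln1 lay below those of T1 (22.9 CPM) and ET1 (16.9 CPM), and their 21.8 CPM of Cbln2 was close to the 22.5 CPM of ET1. The level of Lrrtm2 was highest in a tufted type all the same, at 11.8 ± 3.52 CPM in ET2, and its libraries overlapped between mitral-like and tufted-like nuclei. Lrrtm3 (-1.86, SE 0.25), Nlgn1 (-1.21, SE 0.12) and Nxph4 (-1.20, SE 0.20) were called higher in tufted-like nuclei. None of these calls in the tufted direction held for every type. Nlgn1 was at 11492 ± 497 CPM in ET1 but at 504 ± 126 CPM in ET2, below the means of all 3 mitral types (1093 to 1811 CPM). Lrrtm3 was at 193 ± 106 CPM in M1, above the means of T1 (140 CPM) and ET2 (48.1 CPM), and Nxph4 was at 83.3 ± 41.3 CPM in M3 against 3.24 CPM in T1. The 21 libraries of this fit came from the same 3 mice. With the mouse as a block, the numbers of listed genes called, partners included, stayed at 5 and 3. Those over all genes went from 813 and 560 to 835 and 571.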

How the data were processed

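Single nuclei of 3 mice were sequenced with 10x 3′ v3 chemistry. The authors made the deposited UMI counts per gene and barcode with Cell Ranger, version 3.0.2 in the matrix header, on mm10/GRCm38 (submitters' processing notes). They dropped nuclei under 1000 genes or over 5% mitochondrial UMIs, which is the percent column of the deposited annotation table, and gave each nucleus its cluster and subcluster. Whether intronic reads were counted is not given in the sources used here. Of the annotation table, 6 further numeric columns were not used. No doublet caller was run here, and the methods describe only a sort gate.

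The members and gene lists were chosen with earlier results of these data known. Clusters were named by the fixed marker list of which they carried the largest share, with at least 3 of its markers. No name was given where the immature neuron share was larger or another list held more of the leading genes. Clusters of low median depth with no marker of the list among their leading genes also stayed unnamed. This was so for cluster 21, which carried 5 inhibitory markers at 0.261 of the median depth of all nuclei. Counts were summed per mouse and cluster, and given as CPM (mean and SD over mice) where a mouse had at least 10 nuclei. Shares have exact 95% intervals (SciPy 1.17.1) and were also thinned to 2000 UMIs per nucleus. Thinning left out nuclei with fewer UMIs, so that 65 of 103 nuclei were kept in cluster 21. A count of 0 was given a floor of 3 counts. Partner lists were tested in edgeR 4.0.16 (R 4.3.3) with TMM scaling, filterByExpr and the quasi-likelihood test, with p-values adjusted by Benjamini-Hochberg over all genes tested. The projection-like library of a mouse summed its 7 named types. The text names, per comparison and direction, the 3 called listed genes of largest change, the neurexins always, and the 3 genes of highest correlation with each member, except items not reported here. Other listed genes were named after their values were seen. Libraries of 1 mouse are paired by animal, and their deviations from group means correlated at 0.211 to 0.333 between the 2 classes, against a mean of -0.138 between mice. Alternatives were other scalings, DESeq2 1.42.0, no filter, the mouse as a block, deeper nuclei, other totals and leaving out each mouse.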

Additional observations from a re-analysis of the deposited data

Results flagged for a closer look

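Barcodes that Cell Ranger called but that carry no cluster in the annotation, 1873, 8724 and 2123 in mice 1, 2 and 3, entered no comparison, and they too held UMIs of the family. Pooled over the libraries, Fam19a2 was at 215.8 CPM, Fam19a5 at 78.7 CPM, Fam19a1 at 43.01 CPM, Fam19a3 at 4.43 CPM and Fam19a4 at 0.532 CPM, each above the 0.266 CPM that a count of 0 allows. Fam19a4 rested on 6 UMIs. The mice differed, with 523, 75.7 and 386 CPM of Fam19a2 and 48.3, 92.3 and 62.5 CPM of Fam19a5 in mice 1, 2 and 3, so that in mouse 2 Fam19a5 lay above Fam19a2. The Fam19a1 level came almost wholly from mouse 3, with 199 CPM against 6.54 and 4.10 CPM in mice 1 and 2. There, 6 barcodes with at least 10 UMIs held 374 of the 443 Fam19a1 UMIs, and 1 of them held 166 among its 1596 UMIs. Mouse 3 was also the library with the most such nuclei in cluster 8.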

How the results depend on the processing

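The log2 ratio of Fam19a1 between projection-like and inhibitory-like nuclei turned from -3.70 to 1.02 without the 76 nuclei with many Fam19a1 UMIs, and its level in cluster 8 went from 1321 to 9.44 CPM. That alternative was chosen after seeing the data, and because the 76 were picked on Fam19a1, a fall was fixed in advance. With the mean over nuclei in place of summed counts, Fam19a1 in cluster 8 was 598 CPM and its class ratio -1.87, both within 1 SD over mice, while the ratio of Fam19a2 between these classes was 1.11 (1.41 with summed counts), that of Fam19a3 between mitral-like and tufted-like nuclei 1.46 (1.33), and Fam19a1 in ET4 83.97 CPM (73.3). Without Malat1 and mitochondrial genes in the total, Fam19a1 in ET4 was 78.6 CPM and Fam19a5 in cluster 17 was 336.8 CPM (308). The causes were not tested.

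Thinning lowers shares by construction. Thinned to 2000 UMIs, the share with Fam19a1 was 6.30% in cluster 8 and 10.4% in ET4, with Fam19a2 80.6% in cluster 13 and 81.2% in M1, with Fam19a3 4.15% in cluster 5 and 4.96% in M2, with Fam19a4 4.01% in cluster 19 and 0.505% in subcluster 8, and with Fam19a5 44.4% in cluster 17 and 17.98% in subcluster 8.

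Leaving out each mouse in turn gave 717 CPM (without mouse 3) to 1903 CPM (without mouse 2) for Fam19a1 in cluster 8, and a class ratio of -4.36 to -2.07. The mitral-to-tufted ratios of Fam19a4 (-0.35 to 0.02) and Fam19a5 (-0.14 to 0.31) changed sign. Of the listed genes, 7 were called higher in projection-like and 6 to 7 in inhibitory-like nuclei, and 4 to 5 in mitral-like and 3 in tufted-like nuclei, with Nxph2 lost without mouse 1 (edgeR adjusted p = 0.064) or mouse 2 (0.055), and Gpr1 without mouse 1 or mouse 2. With the mouse as a replicate block, which pairs libraries by animal, the counts were 7 and 7, and 5 and 3, as they were with DESeq2, with its size factors and without the filter, and, for the classes, without the 76 nuclei or without clusters 10 and 12 (the last also chosen after seeing the data).

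With 3 mice from 1 group, the error is that between these animals. M1 of mouse 1 rests on 14 nuclei and cluster 19 of mouse 3 on 10. Fam19a4 and the rarer partners are limited by depth. Cluster names rest on markers, and doublets and free RNA were not modelled.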
